A study of Mus musculus with 17 samples.

Results

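The genes described here are the cytochrome P450 genes of families 1, 2 and 3 in mouse liver. They were taken as every gene of the deposited table whose symbol starts with Cyp, a family number of 1, 2 or 3 and a letter, with 1 symbol left out by the rule that defined the set. The rule found 64 of 24676 genes and used no measured value. The annotation in the deposited table lists 52 of them as protein coding and 12 as pseudogenes of 2 kinds (9 unprocessed and 3 transcribed unprocessed). Of the 64, 44 passed the filter on low values (10 normalized counts or more in 4 or more libraries) and entered the tests. A normalized count is the number of reads in a gene divided by 1 size factor per library.

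Liver RNA of male mice of mixed strain was sequenced in 17 libraries. All mice carried 2 floxed Gata4 alleles (Gata4 fl/fl), controls included. They received an adeno-associated virus of serotype 8 that either expressed Cre from the hepatocyte promoter Tbg (labelled Gata4LKO) or was empty (labelled control). After 1 week they were gavaged 17 h and 8 h before sacrifice with 40 mg/kg of GW3965, an agonist of the liver X receptors, in canola oil, or with dimethylsulfoxide in canola oil as vehicle, and food was withheld for 4 h. There were 4 groups: control with vehicle (libraries 1 to 4), control with GW3965 (libraries 9, 10, 12 and 13), Gata4LKO with vehicle (libraries 5 to 8) and Gata4LKO with GW3965 (libraries 14 to 18). The grouping is that of the titles; in 8 libraries the treatment label says the opposite, namely in those of control with GW3965 and of Gata4LKO with vehicle. Virus cargo and genotype label cannot be told apart, since all control mice received the empty virus. The labels give an age of 11 weeks and leave it unsaid whether libraries stem from different mice, so p-values measure the spread between these libraries.

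Cytochrome P450 enzymes are haem proteins of the endoplasmic reticulum that insert an oxygen atom into drugs, steroids, fatty acids and other lipids, with electrons passed on by the reductase Por. In hepatocytes, families 1 to 3 carry most oxidation of drugs. Ligand-activated receptors control many of them: AHR for family 1, CAR and PXR for many genes of subfamilies 2b, 2c and 3a. Many mouse members lie in clusters of recent duplicates whose transcripts resemble each other, and several are known to differ between male and female liver.

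The libraries held 11755516 to 22045786 reads in genes. The share of mitochondrial transcripts was 15.6% to 32.6% in 5 libraries (control vehicle 1, control GW3965 10 and 13, Gata4LKO GW3965 17 and 18) and 6.06% to 7.26% in the other 12. Libraries 6 and 16 had the fewest genes above 0, at 15515 and 15601. Gata4 itself was not lower in the libraries labelled Gata4LKO, at 137 to 234 normalized counts with vehicle and 159.9 to 259.9 with GW3965, against 128 to 183 and 164 to 258 in controls. The count covers the whole gene, deleted part and remainder alike, and genotype directions below are between libraries as labelled. Gm5345 was at 0 to 1.64 normalized counts in libraries 5 to 10 and at 23.1 to 101 in the others. With vehicle, every library labelled Gata4LKO thus differed from every control library in this gene, and what goes with Gm5345 cannot be told apart from the genotype label there. Among libraries labelled Gata4LKO, those with vehicle were low and those with GW3965 were not, so Gm5345 cannot be told apart from treatment either. In control with GW3965, libraries 9 and 10 were low and libraries 12 and 13 were not. Summed over 6 hepatocyte markers the libraries had 1.24e+06 to 2.14e+06 normalized counts, against 2289.8 to 5779 for 10 macrophage markers, 2875 to 5023 for 6 sinusoidal endothelial markers, 2870.2 to 5962 for 8 stellate cell markers, 389 to 803 for 5 cholangiocyte markers and 114 to 314 for 5 lymphocyte markers. The kidney markers Umod and Slc34a1 did not pass 2.23 and 0.833. Of the intestinal markers, Lgals4 had 108 to 557, while Vil1 did not pass 4.46.

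The members made up 1.96% to 2.64% of all normalized counts. Cyp2e1, which oxidises ethanol and paracetamol, alone held 45.6% of the members' sum. Subfamily 3a held 17.2%, subfamily 2c 14.8%, subfamily 2d 7.09%, subfamily 2a 4.45%, subfamily 2j 3.87%, Cyp2f2 3.45% and subfamily 1a 3.18%, whereas the 4 genes of subfamily 2b together held 0.104%. Per kb of exon, Cyp2e1 had a mean of 86718 normalized counts over the 17 libraries. It was followed by Cyp3a11 at 10089.7, Cyp2c29 at 9212, Cyp2f2 at 6986, Cyp3a25 at 6574, Cyp1a2 at 6476, Cyp2j5 at 6002, Cyp2d26 at 5265, Cyp2a5 at 5228 and Cyp2d9 at 3690.2 per kb. Cyp2e1 stood above every other member in every library, and from Cyp3a11 down to Cyp2d9 neighbours in this order overlapped in their library values. The genes lie on chromosome 15 (16 members, all of subfamily 2d), 19 (15, subfamily 2c), 7 (14, subfamilies 2a, 2b and others), 5 (10, subfamily 3a), 4 (4, subfamily 2j) and 9 (2, subfamily 1a), with single members on chromosomes 3, 16 and 17.

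**Figure D1:**
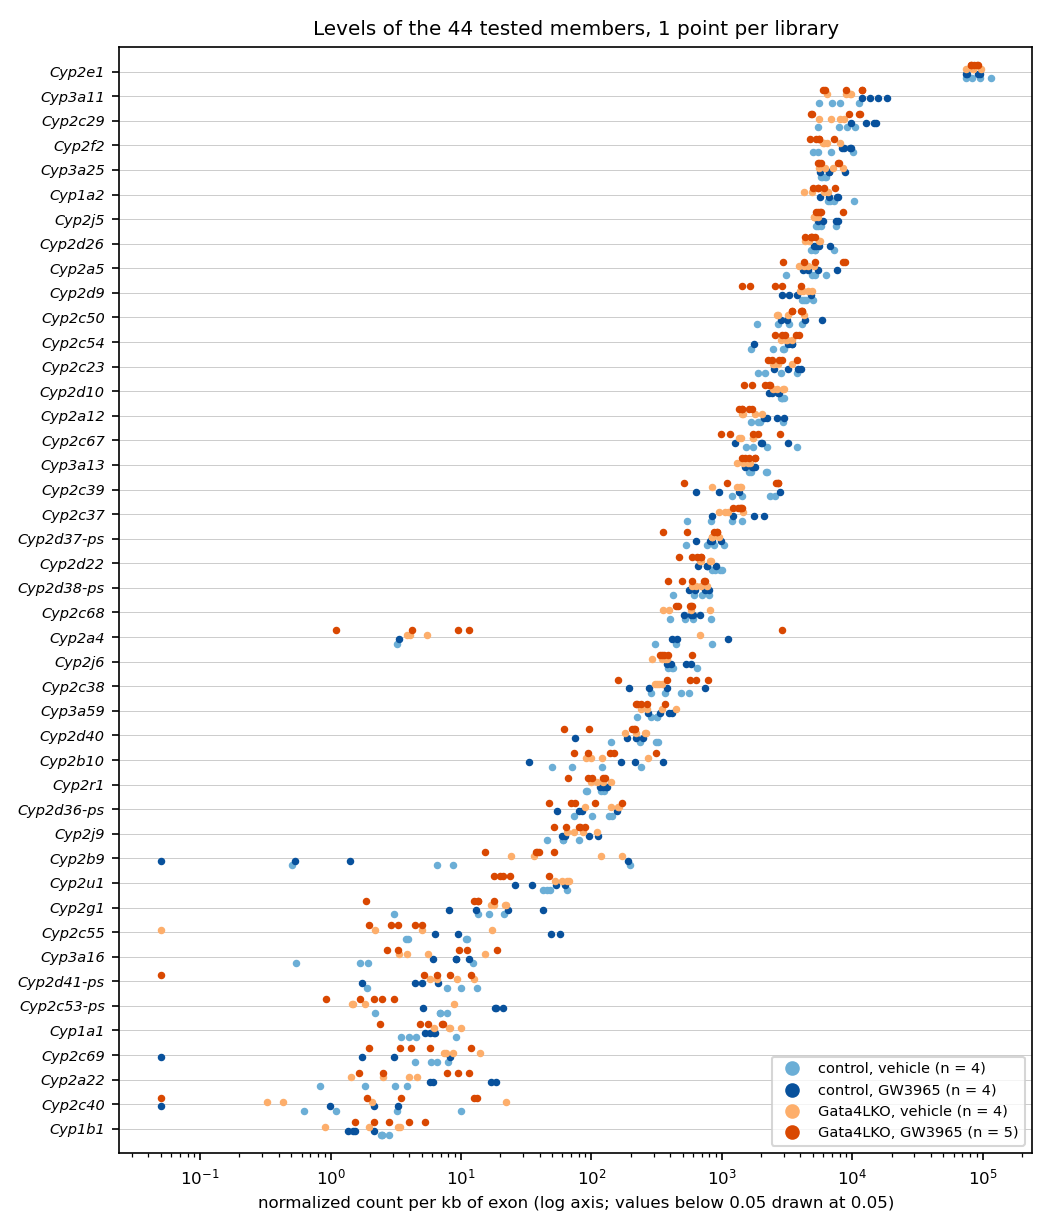
Normalized count per kb of exon (log axis) of the 44 tested members, ordered by mean level, with 1 point per library coloured by group. Cyp2e1 lies apart at the top with a mean of 86718 per kb, and Cyp2a4 and Cyp2b9 have the widest scatter between libraries.

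Family 1 spanned the range of levels. Cyp1a1, the classical AHR target that oxidises polycyclic hydrocarbons, lay between 6.7 and 28.0 normalized counts, and Cyp1b1 between 5.26 and 30.8. Cyp1a2, the caffeine-oxidising member of the same subfamily, lay between 8620.3 and 20879.6. Cyp2r1, a vitamin D 25-hydroxylase, had 139.5 to 298 normalized counts. The 20 members that were not tested never passed 17.9 normalized counts. Among them, Cyp3a41a was above 0 in only 2 libraries, at 1.11 and 1.12, and Cyp2b13 in 1 library, at 1.67.

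GW3965 was first compared with vehicle in control mice. Cyp3a11, the main mouse counterpart of human CYP3A4 and a target of PXR, had the lowest p of the members and was higher in every GW3965 library, though it did not pass the threshold of an adjusted p below 0.05. Its normalized counts were 57591, 35647, 40959 and 28250.1 with vehicle and 70204, 80135, 60596 and 94776 with GW3965. The groups did not overlap, and the means were 40612 ± 12462 and 76428 ± 14604 (SD, n = 4 each). The difference in log2(normalized count + 1) was 0.94 ± 0.26 (SE), or 1.92-fold with a 95% interval of 1.32 to 2.79 (limma adjusted p = 0.125). Leaving out the 5 libraries with a high mitochondrial share gave 0.92 ± 0.28. DESeq2 on the recovered reads called it (adjusted p = 0.0237), with a range of 0.0237 to 0.366 over all alternatives. The authors' deposited table lists it below 0.05, at a log2 fold change of 0.91. It starts from the same reads, so these 2 results are not independent.

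Cyp3a11 lies on chromosome 5 from 145854426 to 145879964 on the minus strand (mm10). Its RefSeq promoter (GRCm38.p6, chr5:145879805-145880104, minus strand, 250 bases before to 50 after the start) is shown because it holds the HNF4-type element found in 9 members and a nuclear receptor hexamer. Both, CAAAGTCCA and AGGTCA, are in capitals. The gene span given above is from GENCODE and begins further upstream, so the 2 annotations place the start differently. Motif positions are counted from the RefSeq start.
Cyp3a11: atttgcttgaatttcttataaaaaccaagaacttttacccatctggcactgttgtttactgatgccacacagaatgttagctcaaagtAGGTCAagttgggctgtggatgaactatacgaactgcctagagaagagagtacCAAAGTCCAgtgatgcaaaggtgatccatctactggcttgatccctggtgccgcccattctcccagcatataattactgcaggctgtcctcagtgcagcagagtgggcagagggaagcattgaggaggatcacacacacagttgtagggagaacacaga

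Cyp2a22, a little-studied member of subfamily 2a, had the largest positive difference of the members in the same comparison, at a low level. It had 6.32, 13.4, 2.84 and 10.7 normalized counts with vehicle and 58.3, 20, 21 and 63.8 with GW3965. All 4 GW3965 libraries lay above all 4 vehicle libraries. The log2 difference was 2.14 ± 0.61, or 4.41-fold with an interval of 1.81 to 10.7 (limma adjusted p = 0.155). DESeq2 gave an adjusted p of 0.0199, with 0.0199 to 0.463 over all alternatives, and the authors' deposited table lists it at a log2 fold change of 2.30. The coding sequence of Cyp2a22 is 96.95% identical to that of the more abundant Cyp2a12, and 20.2% of its 50-base words also occur in Cyp2a12, so reads may be split between them.

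Cyp2c29, a pericentral enzyme induced through CAR, had 27708, 24243, 32065 and 16689.9 normalized counts with vehicle and 29843, 44969, 38852 and 46928 with GW3965. The groups overlapped, and differed by 0.69 ± 0.29 on the log2 scale (limma adjusted p = 0.440). Cyp2f2, a periportal member also known from lung, had 20570.1 in control vehicle library 1 and 10146 to 13848 in the other 3, against 16998 to 19824 with GW3965 (0.46 ± 0.19, limma adjusted p = 0.420). Library 1 is the control vehicle library with a high mitochondrial share. Cyp2b10, the usual reporter of CAR activity, had 507, 150.3, 253 and 106 with vehicle and 358, 70.0, 458 and 743 with GW3965. These values overlapped over their whole range (0.52 ± 0.62, limma adjusted p = 0.926), and the difference ran from 0.09 to 1.34 over the alternatives. Cyp2e1 differed by -0.11 ± 0.18, with an interval of -0.48 to 0.26, and by 0.01 without control vehicle library 1.

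In control mice 0 of the 44 members were called by limma or edgeR, beside 0.792% of all 13379 tested genes by either tool, and DESeq2 called 2, Cyp3a11 and Cyp2a22, beside 1.55%. At an unadjusted p below 0.05 there were 8 members, beside 8.96% of all genes. Of these, 7 were higher (5.02% of all genes) and 1 lower (3.95%). They were Cyp3a11, Cyp2a22, Cyp2f2, Cyp2c29, Cyp3a16, Cyp2c53-ps and Cyp2c37 on the higher side and Cyp2c69 on the lower. The groups did not overlap in Cyp3a11 and Cyp2a22 on the higher side, 2 members beside 3.13% of all genes, and in Cyp2d10 and Cyp1b1 on the lower side, 2 members beside 2.71%. The authors' deposited table lists 2 members below an adjusted p of 0.05, beside 1.62% of its genes. Of the 44, 27 had a positive difference, beside 49.1% of all genes, with a median of 0.14 against -0.01 for all genes, and of 0.04 with the high-mitochondrial libraries left out. Of the 10 tested members listed as induced through CAR or PXR, 8 had a positive difference (median 0.48). Summed over all 12 listed, untested ones included, normalized counts were 79183 to 123503 with vehicle and 133897 to 190611 with GW3965, which did not overlap. Without Cyp3a11 the sums were 50932.7 to 65912 and 63692.5 to 95835, which did. The sum of the 10 macrophage markers moved in the same comparison, from 2289.8 to 3196 with vehicle to 4103 to 5318 with GW3965, with Cd5l called by limma. Its part in the members' differences was not tested. In a bulk sample, fewer cells of a type and less RNA per cell cannot be told apart.

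**Figure D2:**
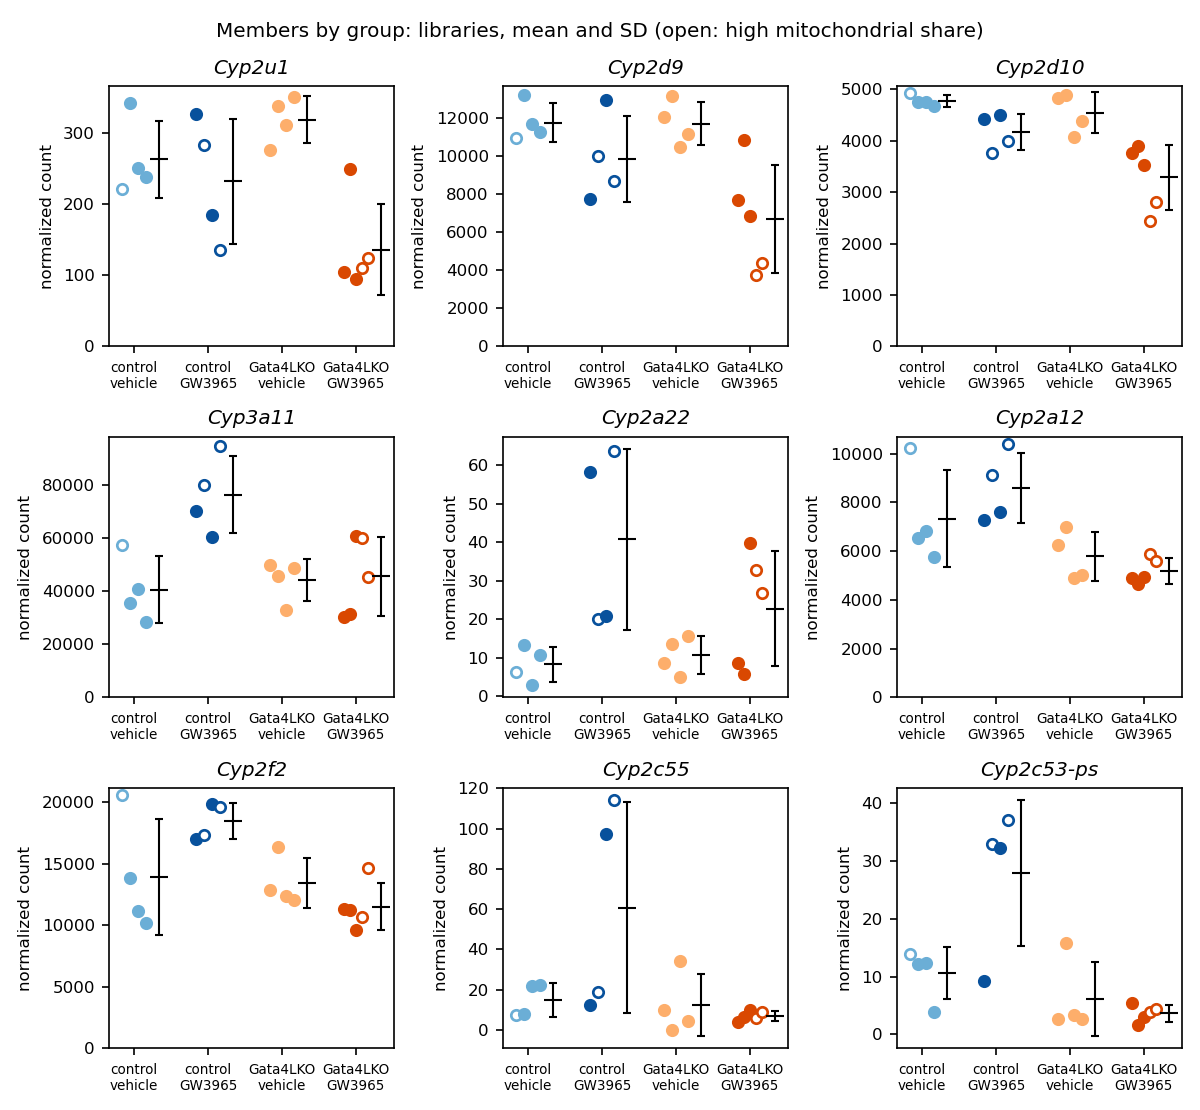
Normalized counts of 9 members by group, with 1 point per library, a bar for the mean and an error bar for the SD (n = 4, 4, 4 and 5 libraries); open points are the 5 libraries with a high mitochondrial share. Cyp3a11, Cyp2a22 and Cyp2d10 are separated by GW3965 in control, and Cyp2u1 and Cyp2d10 by GW3965 in the libraries labelled Gata4LKO. Cyp2a12, Cyp2f2, Cyp2c55 and Cyp2c53-ps are separated by genotype label under GW3965.

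GW3965 was then compared with vehicle in the libraries labelled Gata4LKO. Cyp2u1, which hydroxylates long-chain fatty acids such as arachidonic acid, was the only member called by limma in any pairwise comparison, and it was lower with GW3965. Its normalized counts were 276, 339, 312 and 351 with vehicle and 104, 249, 94.5, 109.8 and 124 with GW3965. All 5 GW3965 libraries lay below all 4 vehicle libraries, and library 15 lay apart from the other 4. The log2 difference was -1.31 ± 0.27, or 0.402-fold with an interval of 0.272 to 0.595 (limma adjusted p = 0.0485). In control mice the values were 221, 343, 251 and 239 with vehicle and 327, 283, 184 and 135 with GW3965, which overlapped. The higher GW3965 values were those of libraries 9 and 10, which were low in Gm5345, and the part of what goes with Gm5345 was not tested.

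The Cyp2u1 call lies close to the threshold. Leaving out 1 library at a time gave adjusted p-values of 0.00566 to 0.150, and of these fits the call held only without library 15. With the high-mitochondrial libraries left out the difference was -1.23 ± 0.30 (limma adjusted p = 0.124), and without libraries 6 and 16 it was -1.18 ± 0.31 (0.25). It was not called by edgeR (adjusted p = 0.0711) and was called by DESeq2 (0.00310), and adjusted p-values over all alternatives ran from 0.00310 to 0.25. The authors' deposited table lists it at a log2 fold change of -1.22 and an adjusted p of 0.00332. Cyp2u1 (chromosome 3, 131288441 to 131303227, minus strand, mm10) has exons that overlap 4930534D22Rik on the opposite strand. The sources used here do not say whether counting used strand, so reads of the 2 genes may be mixed. The summed stellate cell markers also differed here, at 2870.2 to 4230.4 with vehicle and 4079 to 5962 with GW3965, and their part in the result was not tested. Gm5345 separated the same groups, so what goes with it cannot be told apart from GW3965 in this comparison.

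Genes of subfamily 2d on chromosome 15 had the next lowest p-values. Cyp2d9, a steroid 16-alpha-hydroxylase that is higher in male than in female mouse liver, had 12064, 13137, 10498 and 11166 normalized counts with vehicle and 7700.2, 10834, 6827, 3767 and 4357 with GW3965. The groups overlapped through library 15 alone, and the 2 lowest values were those of libraries 17 and 18, which have a high mitochondrial share. The log2 difference was -0.91 ± 0.23 (limma adjusted p = 0.113) with all libraries and -0.49 ± 0.18 (0.331) without those with a high mitochondrial share. Cyp2d10, a close relative in the same cluster, had 4839, 4899, 4075 and 4381 with vehicle and 3766, 3889.9, 3527, 2447 and 2813 with GW3965. These groups did not overlap, and libraries 17 and 18 were again lowest. Its difference was -0.49 ± 0.13 (limma adjusted p = 0.113) and -0.28 ± 0.08 with the high-mitochondrial libraries left out. DESeq2 called both, at adjusted p-values of 0.0494 for Cyp2d9 (0.0180 to 0.374 over all alternatives) and 0.0318 for Cyp2d10 (0.0318 to 0.345). Of these 2, the authors' deposited table lists Cyp2d10 below 0.05. In control mice Cyp2d10 was also lower with GW3965 without overlap, at 3763 to 4496 against 4666 to 4934 with vehicle.

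Cyp2d9 and Cyp2d10 also ordered the libraries alike, as 4 of the 5 libraries lowest in Cyp2d9 were among the 5 lowest in Cyp2d10, and 4 of the 5 highest were shared. Their coding sequences are 92.46% identical. Of the 50-base words of Cyp2d10, 35.8% also occur in another gene, and 21.8% of those of Cyp2d9. Reads may thus be split between related genes, so the 2 values are not independent measures. Cyp2d22 (-0.29 ± 0.12, limma adjusted p = 0.368) and the pseudogene Cyp2d36-ps (-0.65 ± 0.34) had negative differences too, of -0.15 and -0.28 with the high-mitochondrial libraries left out. Cyp2d26, another abundant gene of the cluster, differed by -0.06 ± 0.13, with an interval of -0.33 to 0.21.

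Of the 44 members, 1 was called by limma in the libraries labelled Gata4LKO, beside 0.247% of all genes, 0 by edgeR, beside 0.239%, and 3 by DESeq2, beside 1.44%. At an unadjusted p below 0.05 there were 4 members, beside 12% of all genes, and all 4 were lower, beside 5.55%. The groups did not overlap in Cyp2u1 and Cyp2d10, 2 members beside 2.34% that were lower without overlap. The authors' deposited table lists 2 members, beside 1.33% of its genes. The members split evenly, 22 positive and 22 negative, beside 49.4% positive of all genes, with a median of 0.00 on the log2 scale. Cyp3a11 had 49867, 45849, 32808 and 48895 normalized counts with vehicle and 30432, 31412, 60761, 60177 and 45220.2 with GW3965 in these libraries, and the groups overlapped throughout. All 7 members listed as pericentral had small positive differences (median 0.12), none of which was called.

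**Figure D3:**
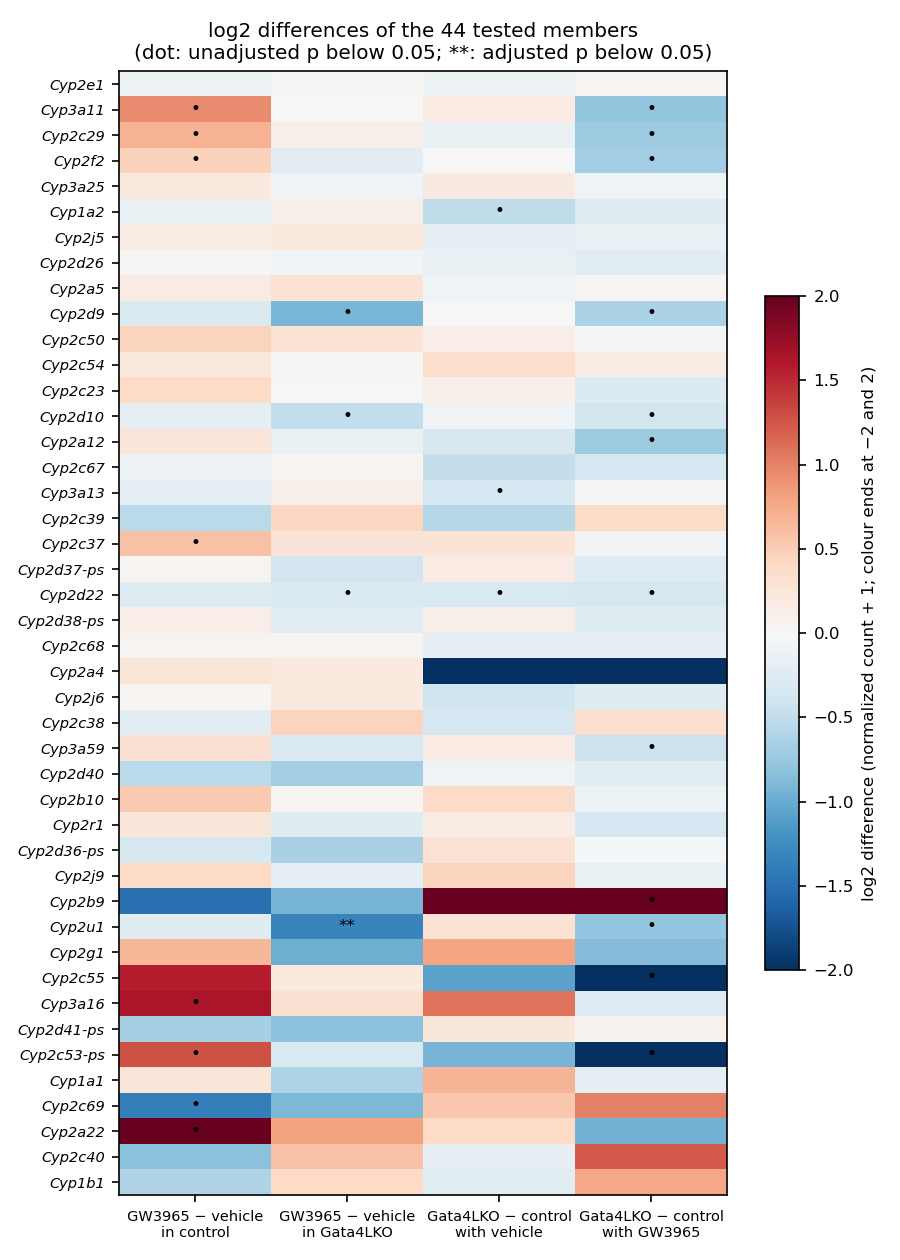
Log2 differences of the 44 tested members (rows, by mean level per kb) in the 4 pairwise comparisons (columns), red for higher and blue for lower; a dot marks an unadjusted p below 0.05 and 2 asterisks an adjusted p below 0.05 in limma. Cyp2u1 with GW3965 in the libraries labelled Gata4LKO is the single called cell, and 34 of 44 members are on the lower side in the last column.

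With vehicle, 0 of the 44 members were called between the genotype labels by limma or edgeR, beside 0.0149% of all genes by either, and 0 by DESeq2, beside 0.386%. At an unadjusted p below 0.05 there were 3 members, beside 6.15% of all genes, and all 3 were lower in the libraries labelled Gata4LKO, beside 3.3%. The authors' deposited table lists 0 members, beside 0.434% of its genes. Cyp1a2 had 20879.6, 14702, 13697 and 13191 normalized counts in control and 8620.3, 9829, 12283 and 13121 in the libraries labelled Gata4LKO. The groups were separate by a narrow margin, and the highest control value was that of library 1. The log2 difference was -0.51 ± 0.17 (limma adjusted p = 0.531), with -0.60 to -0.36 over all alternatives. Cyp3a13, a member of subfamily 3a on chromosome 5 outside its main cluster, differed by -0.35 ± 0.12 with overlapping groups. Cyp2d22 had 3314 to 3902 in control and 2660.4 to 3209 in the libraries labelled Gata4LKO, without overlap (-0.31 ± 0.13, limma adjusted p = 0.764). Cyp2j6, an arachidonic acid epoxygenase, was the third member without overlap, and these 3 stand beside 3.58% of all genes that were lower without overlap. Of the 44, 21 had a positive difference, beside 48.5% of all genes, and the median was -0.01 for members and for all genes. All 6 hepatocyte markers had a negative difference here (median -0.26), and their sums were 1738630 to 1888340 in control and 1366610 to 1588300 in the libraries labelled Gata4LKO, without overlap. Macrophage markers summed to 2289.8 to 3196 and 3976 to 4904. The part of either in these values was not tested.

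With GW3965 in both genotype labels, 34 of the 44 members were lower in the libraries labelled Gata4LKO than in control, and the median log2 difference was -0.23 against -0.01 for all genes. Of all genes, 47.1% had a positive difference, against 22.7% of the members. With the high-mitochondrial libraries left out, 14 of the 44 were positive and the median was -0.14. With scaling to the total without mitochondrial genes 16 were positive and the median was -0.11, while that of all genes moved to 0.10 in both pairwise genotype comparisons. Hepatocyte markers moved alike in this comparison, with 5 of 6 negative and a median of -0.27, and their sums were 1437110 to 2140830 in control and 1240710 to 1609730 in the libraries labelled Gata4LKO, which overlapped. Their part in the members' differences was not tested. By limma and by edgeR 0 members were called, beside 0.0598% and 0.0448% of all genes. DESeq2 called 4, beside 0.548%, and the authors' deposited table, which starts from the same reads, lists the same 4 below 0.05, beside 0.51% of its genes. In these 4 the groups did not overlap either, beside 1.14% of all genes that were lower without overlap. At an unadjusted p below 0.05 there were 12 members, or 27.3%, beside 6.47% of all genes. Of these, 11 were lower (3.39% of all genes) and 1, Cyp2b9, was higher (3.08%). The direction of Cyp2b9 depended on the scale, since its difference was 3.18 ± 1.44 in limma but -0.43 in edgeR and -0.39 in DESeq2, and its mean was 89.7 ± 177 normalized counts in control and 68.4 ± 24.7 in the libraries labelled Gata4LKO. Close duplicates are among them, so these members are not independent of each other.

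Cyp2a12, a hepatic steroid hydroxylase of subfamily 2a, had 7259, 9126, 7616 and 10397 normalized counts in control and 4908, 4648, 4928, 5897 and 5586 in the libraries labelled Gata4LKO. Every control library lay above every library labelled Gata4LKO. The means were 8599.9 ± 1446 (n = 4) and 5193 ± 524 (n = 5), and the log2 values differed by -0.72 ± 0.16 (limma adjusted p = 0.137). The 2 highest control values came from libraries 10 and 13, which have a high mitochondrial share, and without all 5 such libraries the difference was -0.62 ± 0.14 (limma adjusted p = 0.216). Its DESeq2 adjusted p was 0.0115, with 0.0115 to 0.374 over all alternatives. With vehicle the same genotype difference was -0.32, and -0.15 without control library 1.

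Cyp2f2 had 16998, 17352, 19824 and 19555 in control and 11302, 11206, 9638, 10631 and 14673 in the libraries labelled Gata4LKO. The groups did not overlap, and the log2 difference was -0.69 ± 0.18 (limma adjusted p = 0.188) and -0.78 ± 0.16 with the high-mitochondrial libraries left out. Its DESeq2 adjusted p was 0.0451, with 0.0451 to 0.392 over all alternatives. Cyp3a11 differed by -0.79 ± 0.24 with overlapping groups (limma adjusted p = 0.394). This comparison uses the same control GW3965 libraries in which Cyp3a11 and Cyp2f2 were high against vehicle.

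Cyp2c55, a member expressed mostly in intestine and inducible in liver through CAR and PXR, had 12.5, 19.0, 97.1 and 114 normalized counts in control and 3.93, 6.54, 9.94, 5.78 and 8.93 in the libraries labelled Gata4LKO. The separation rested mostly on libraries 12 and 13. The other control GW3965 libraries were low in Gm5345, and the part of what goes with it was not tested. The log2 difference was -2.44 ± 0.82 (limma adjusted p = 0.486). Cyp2c53-ps, a pseudogene of the same cluster whose exons overlap Cyp2c29 on the same strand, had 9.17, 33.0, 32.4 and 37.2 in control and 5.5, 1.63, 2.98, 3.85 and 4.46 in the libraries labelled Gata4LKO. All control libraries were higher, at -2.52 ± 0.55 (limma adjusted p = 0.130). DESeq2 gave adjusted p-values of 0.0162 for Cyp2c55 (0.0162 to 0.770 over all alternatives) and 0.00360 for Cyp2c53-ps (0.00360 to 0.641). Stellate cell markers summed to 3135 to 3832 in control and 4079 to 5962 in the libraries labelled Gata4LKO, without overlap, and their part was not tested.

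Averaged over genotype labels, Cyp2u1 was lower with GW3965 by limma (-0.78 ± 0.20, adjusted p = 0.0493), the only 1 of the 44 members called, beside 1.78% of all genes. Without 1 library at a time, its adjusted p ran from 0.00563 to 0.111, and the call held in 3 of 17 cases, those without libraries 1, 9 and 15. It was not called with the high-mitochondrial libraries left out (limma adjusted p = 0.192) or by edgeR (0.0910), which called 0 members beside 1.64% of all genes. DESeq2 called Cyp2u1, Cyp2a22 and Cyp2d10, 3 members beside 3.67%. Unadjusted p-values were below 0.05 in 10 members, beside 15.3% of all genes, 4 higher (7.87%) and 6 lower (7.45%).

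Averaged over treatments, 0 members were called between genotype labels by limma or edgeR, beside 0.224% and 0.284% of all genes. DESeq2 called Cyp2a12 and Cyp2c53-ps, 2 members beside 0.779%. At an unadjusted p below 0.05 there were 11 members, beside 7.19% of all genes, 10 lower in the libraries labelled Gata4LKO (3.96%) and 1 higher (3.23%). The GW3965 response did not pass the test of a difference between genotype labels in any member. The interaction called 0 members by limma, edgeR and DESeq2, beside 0.0149%, 0% and 0.162% of all genes, and the authors' deposited table lists 0, beside 0.19%. In this test 4 members had an unadjusted p below 0.05, beside 4.65%, all with a negative interaction, beside 2.08%. These were Cyp2u1 (-1.07 ± 0.39, limma adjusted p = 0.900), Cyp3a11 (-0.95 ± 0.35, 0.906), Cyp2f2 (-0.68 ± 0.26, 0.906) and Cyp3a59 (-0.59 ± 0.28, 0.997). The different calls in the 2 genotype labels are therefore not shown to differ.

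Other genes of the pathway were given by lists chosen with earlier results of these data known. None of 18 tested receptors and regulators of P450 genes was called in any comparison. The CAR gene Nr1i3 had 7134 to 10140.1 normalized counts in control vehicle and 7240.3 to 9221 in control GW3965 libraries, and the PXR gene Nr1i2 had 1668 to 1938 and 1569 to 2489. None of 16 genes for electron donors and haem supply was called either. In the libraries labelled Gata4LKO, Por had 11771 to 15085 with vehicle and 15980.3 to 24810.4 with GW3965 (0.58 ± 0.17, limma adjusted p = 0.200). Alas1, the first enzyme of haem synthesis, had 6762 to 9933 and 11294 to 18563 there (0.70 ± 0.25, limma adjusted p = 0.303). In control mice Por had 14414 to 19196 with vehicle and 14589 to 26113 with GW3965. Alas1 had 8667 to 14226 and 3491 to 10632 there. Both genes thus overlapped between treatments in control, and the mean of Alas1 was lower with GW3965, at 7728 against 10776.

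Of 24 other tested drug metabolism targets of CAR, PXR and AHR, 2 rose with GW3965 in control mice, or 8.33%, beside 0.792% of all genes. This list too was chosen with earlier results known, so its shares do not measure enrichment. The carboxylesterase Ces2a rose from 2565 ± 141 to 4279 ± 542 normalized counts (0.73 ± 0.12, limma adjusted p = 0.0105), and the efflux pump Abcc4 from 39.7 ± 1.58 to 137 ± 54.8 (1.66 ± 0.33, limma adjusted p = 0.0233). Ces2a was called in all 17 alternatives run for it and Abcc4 in 9 of 17, with an adjusted p of 0.199 when the high-mitochondrial libraries were left out. In the libraries labelled Gata4LKO, 0 of the 24 were called with GW3965 by limma, beside 0.247% of all genes. Between genotype labels under GW3965, Ces2a was lower in the libraries labelled Gata4LKO, at 2274 ± 392 (-0.92 ± 0.12, limma adjusted p = 0.00246), 1 of 24 beside 0.0598% of all genes. This used the same control GW3965 libraries, and the call was lost in 1 of 18 alternatives, the fit of these 2 groups alone (adjusted p = 0.126). Averaged over genotype labels, Abcb1a, Akr1b7, Abcc4, Gsta2 and Papss2 rose and Aldh1a1 fell, 6 of 24 beside 1.78% of all genes. The Gsta2 call held in 10 of 25 alternatives and that of Akr1b7 in 16, those of the other 4 in 19 to 24. Averaged over treatments, Ces2a and Aldh1a7 were lower in the libraries labelled Gata4LKO, 2 of 24 beside 0.224% of all genes, but held in only 10 and 9 of 25 alternatives.

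Several members varied widely between libraries of the same group. The median within-group SD on the log2 scale was 0.42 over the tested members and 0.32 over all tested genes. Cyp2a4, a steroid 15-alpha-hydroxylase that is higher in female than in male mouse liver, had the widest spread of the members, at an SD of 3.79, at percentile 99.99 of all tested genes. Its normalized counts were 531, 5.57, 768 and 1470.5 in control vehicle, 5.83, 722, 789 and 1942 in control GW3965, 6.67, 9.47, 1182 and 7.01 in Gata4LKO vehicle, and 16.5, 7.35, 5034, 1.93 and 20.1 in Gata4LKO GW3965 libraries. It thus lay at 1.93 to 20.1 in 9 libraries and at 531 to 5034 in the other 8, with nothing between, and both levels occurred in every group. Of control libraries 6 of 8 were at the high level (3 with each treatment), and of libraries labelled Gata4LKO 2 of 9. The genotype difference averaged over treatments was -3.10 ± 1.58 (limma adjusted p = 0.723), and -4.01 to -0.49 over the alternatives. The authors' deposited table gives log2 fold changes of -1.20 with vehicle and 0.23 with GW3965, so the lower level did not appear in every measure.

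Cyp2a5, the coumarin 7-hydroxylase encoded in the same cluster on chromosome 7, did not show this split. It had 8630.4 to 17571 normalized counts in the 8 libraries with high Cyp2a4 and 6073 to 18218 in the 9 with low Cyp2a4. The coding sequences of Cyp2a4 and Cyp2a5 have 1482 bases each, differ at 23 of them and are 98.45% identical, with a longest identical run of 216 bases. Of the 50-base words of Cyp2a4, 36.1% also occur in Cyp2a5. The treatment of reads that match both genes is not stated. Coding bases 550 to 669 of both genes are shown because 6 of the 23 differences fall there, in capitals. These 6 are among the bases by which reads of the 2 transcripts can be told apart.
Cyp2a4: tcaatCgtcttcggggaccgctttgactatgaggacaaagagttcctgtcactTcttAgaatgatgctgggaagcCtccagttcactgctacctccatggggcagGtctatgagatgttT
Cyp2a5: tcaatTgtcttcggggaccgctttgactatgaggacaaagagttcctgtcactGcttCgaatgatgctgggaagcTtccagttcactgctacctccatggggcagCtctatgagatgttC

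**Figure D4:**
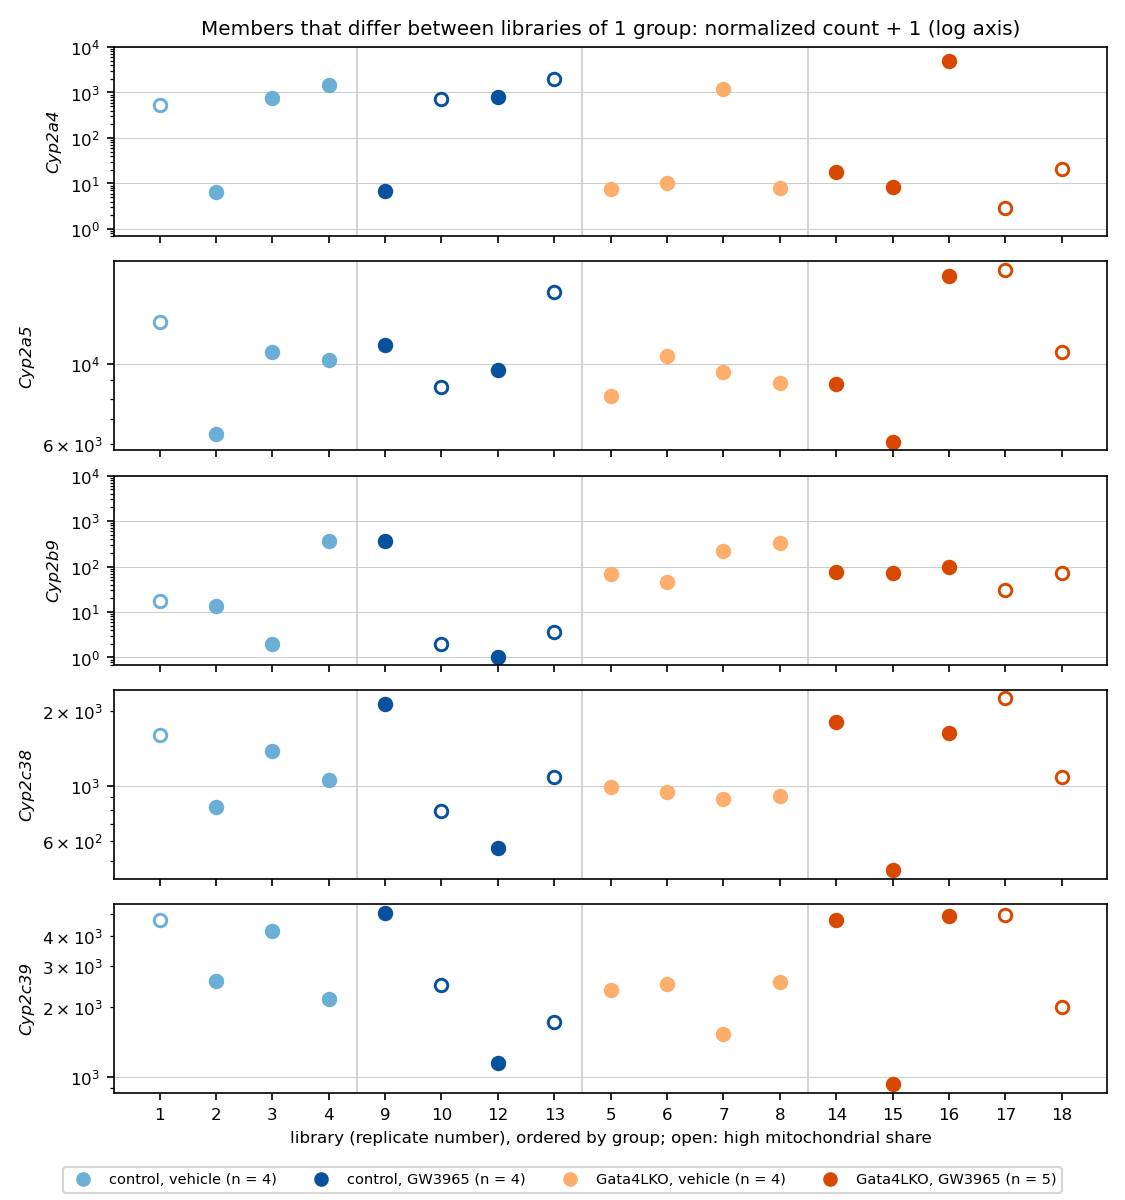
Normalized count + 1 (log axis) in each of the 17 libraries, ordered by group, for 5 members that varied between libraries of a group; open points are the 5 libraries with a high mitochondrial share. Cyp2a4 is at 531 or more in 8 libraries and at 20.1 or less in 9, whereas Cyp2a5 is at 6073 or more throughout, and Cyp2c38 and Cyp2c39 are high in the same 6 libraries.

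Cyp2b9, another gene higher in female liver, was the next most variable, at an SD of 2.49. It had 16.4, 12.2, 0.946 and 369.8 normalized counts in control vehicle and 355, 1.0, 0 and 2.66 in control GW3965 libraries. In the libraries labelled Gata4LKO it had 68.1, 45.2, 222 and 324 with vehicle and 73.8, 70.3, 97.4, 28.9 and 71.4 with GW3965. All 9 libraries labelled Gata4LKO were at 28.9 or more, whereas 6 of the 8 control libraries were at 16.4 or less. The genotype difference averaged over treatments was 2.89 ± 1.04 (limma adjusted p = 0.415), and 0.14 to 3.83 over the alternatives. The high libraries of Cyp2b9 and of Cyp2a4 were not the same, as libraries 9 and 8 were high in Cyp2b9 and low in Cyp2a4. Of the 9 tested members listed as higher in female liver, 5 had a positive and 4 a negative genotype difference averaged over treatments, and none was called.

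Cyp2c38 and Cyp2c39, neighbouring genes for retinoid- and fatty acid-oxidising enzymes on chromosome 19, were added after their values were seen. The 6 libraries highest in either were the same ones, libraries 1, 3, 9, 14, 16 and 17, and they came from 3 groups. The lowest of these 6 had 1386 normalized counts of Cyp2c38 and 4220.0 of Cyp2c39, and the highest of the other 11 had 1088 and 2588. Of the 6 lowest libraries, 3 were shared. Of the 50-base words of Cyp2c39, 11.0% occur in Cyp2c38.

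Shared sequence limits which duplicates can be told apart. Of the 44 tested members, 20 shared over 10% of their 50-base words with another gene and 8 shared none. The closest coding pair was Cyp3a41a and Cyp3a41b at 99.87% identity, followed by Cyp2a4 and Cyp2a5 at 98.45%, Cyp2c67 and Cyp2c69 at 97.69%, Cyp3a25 and Cyp3a59 at 97.48%, and Cyp2c67 and Cyp2c68 at 97.15%. Values of these genes are uncertain to the extent that their reads were split.

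RefSeq promoters were found for 45 of the 64 members, 34 of them tested, as 47 promoters of 300 bases. Motifs were searched on both strands and compared with all 32851 RefSeq promoters of the same length. The HNF4-type element CAAAGTCCA was present in 9 of the 47, or 19.15%, against 0.4749% of all. AGGTCA was present in 16 (34.04%, against 16.26%), and a GATA motif (AGATA or TGATA followed by A or G) in 30 (63.83%, against 29.76%). The AHR-type motif GCGTG was present in 7 (14.89%, against 32.39%), Cyp1a1 and Cyp1b1 among them. Neither a direct repeat of AGGTCA with 4 bases between nor the STAT5-type motif TTCNNNGAA occurred, against 0.01522% and 8.298%. Promoters of duplicated neighbours resemble each other and are not independent. The members' promoters and all promoters were not matched for base composition, and its part in these shares was not tested.

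The 9 promoters with the HNF4-type element are shown in 29-base windows because several of them are copies of each other. There are 4 of subfamily 3a on chromosome 5, 3 of them with 1 identical window, and 5 of subfamily 2c on chromosome 19, among which Cyp2c40 and Cyp2c69 have the same window. The element is in capitals, on the promoter strand in each, and starts 45 to 125 bases before the RefSeq transcription start. In Cyp3a11 it lies within the gene span of GENCODE.
Cyp3a11: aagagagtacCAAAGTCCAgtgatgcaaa
Cyp3a16: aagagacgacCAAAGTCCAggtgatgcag
Cyp3a41a: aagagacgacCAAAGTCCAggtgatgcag
Cyp3a41b: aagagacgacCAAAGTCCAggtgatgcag
Cyp2c65: gatgttggaaCAAAGTCCActgggaggag
Cyp2c67: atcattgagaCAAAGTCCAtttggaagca
Cyp2c68: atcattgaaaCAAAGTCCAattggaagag
Cyp2c40: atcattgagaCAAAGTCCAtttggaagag
Cyp2c69: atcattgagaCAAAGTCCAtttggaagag
Sharing the element did not go with a shared level. Cyp3a11 had a mean of 10089.7 normalized counts per kb, Cyp2c67 of 1918 and Cyp2c68 of 561, whereas Cyp3a16 had 7.43, Cyp2c69 6.05 and Cyp2c40 4.56, and Cyp2c65, Cyp3a41a and Cyp3a41b did not pass the filter.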

How the data were processed

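Liver RNA was sequenced in 17 libraries of 4 groups. Per the labels' protocols, RNA was extracted with TRIzol and RNeasy columns and KAPA mRNA Hyperprep was the library kit. Per the submitters' processing notes, FastQC, STAR 2.6.0c, DESeq2 and the mm10 build were used; which program counted reads, and whether by strand, is not given here. The main file holds normalized counts, a signal the authors deposited; in it 100% of values are whole reads after division by 1 step per library (tolerance 0.05 read), and those reads were recovered for count tests. The authors' deposited tables also give log2 fold changes and p-values per comparison, used only where named. They start from the same reads as the count tests run here, so calls by both are not independent.

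The 13379 of 24676 genes with 10 or more normalized counts in 4 or more libraries were tested by limma 3.58.1 (limma-trend; R 4.3.3) after log2(normalized count + 1), using all libraries in 1 fit, 1 coefficient per group and Benjamini-Hochberg adjustment over all genes tested. Fold changes are on that scale, which understates the change of low genes. Comparisons were the 4 pairwise ones, the 2 averaged effects and the interaction. Adjusted p below 0.05 counts as called. Alternatives were edgeR 4.0.16 and DESeq2 1.42.0 on recovered reads, a pseudocount of 5, no filter, TMM scaling, scaling without mitochondrial genes, fits of the compared groups alone, fits without libraries with a mitochondrial share over 10%, fits without each library in turn and, chosen after seeing the data, fits without the 2 libraries with the fewest genes above 0. DESeq2 used its own filter and gave an adjusted p to 12700 to 16042 genes, 43 to 52 of them members, depending on the comparison. Its shares of all genes refer to those genes. The scripts were tested on simulated data.

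Members, gene lists and tests were chosen with earlier results of these data known. Members named with values are those called, the 5 with the lowest p in each comparison, the 10 most abundant per kb and 19 fixed examples; Cyp2c37, Cyp2c38, Cyp2c39, Cyp2c65, Cyp2c67, Cyp2c68, Cyp2c69 and Cyp2c40 were added after their values were seen. Coordinates and exon lengths are from GENCODE M21 (GRCm38), promoters from RefSeq GRCm38.p6.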

Additional observations from a re-analysis of the deposited data

Results flagged for a closer look

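Of 112 groups checked for a library far from the others (28 named members in 4 groups), 14 held one. The rule set the gap to the nearest library against the range of the group, on normalized counts without logs. A rate of 1 in 20 would give 5.6, but it assumes normally distributed values and independent groups. That was not checked for these counts, so the 14 are not a test against chance. Of the 14, 6 lay in libraries with a high mitochondrial share. Cyp2a4 was at 1182 normalized counts in Gata4LKO vehicle library 7 (others 6.67 to 9.47) and at 5034 in Gata4LKO GW3965 library 16 (others 1.93 to 20.1). Cyp2b9 was at 369.8 in control vehicle library 4 (others 0.946 to 16.4) and at 355 in control GW3965 library 9 (others 0 to 2.66). Cyp2b10 was at 572 in Gata4LKO vehicle library 8 (others 193 to 253). Cyp2c53-ps was low in control vehicle library 4, at 3.88 (others 12.2 to 13.9), and high in Gata4LKO vehicle library 6, at 15.8 (others 2.63 to 3.28). Cyp2u1 was at 249 in Gata4LKO GW3965 library 15 (others 94.5 to 124).

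Control vehicle library 1, with a high mitochondrial share, stood apart in Cyp1b1 (16.4, others 14.2 to 14.6), Cyp2d26 (13021, others 8642 to 9327), Cyp2j6 (2323, others 1382 to 1530.1) and Cyp3a16 (21.5, others 0.946 to 3.34). Gata4LKO GW3965 library 17, which has the highest mitochondrial share, stood apart in Cyp2j5 (19944, others 12255 to 13488) and Cyp2j6 (2125, others 1207 to 1388). The part of the mitochondrial share in these values was not tested.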

How the results depend on the processing

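The number of members called depended on the tool and on single libraries. DESeq2 called 2 with GW3965 in control, 3 with GW3965 in Gata4LKO, 4 between genotype labels with GW3965, 3 with GW3965 averaged and 2 between genotype labels averaged. The single call with GW3965 in Gata4LKO became 0 by edgeR, with no filter, with the high-mitochondrial libraries left out, without the 2 libraries with the fewest genes above 0 and with only the 2 groups in the fit, and ranged from 0 to 2 when 1 library was left out. The single call with GW3965 averaged became 0 by edgeR, with no filter, under TMM scaling, under scaling without mitochondrial genes and without either set of libraries, and ranged from 0 to 4 when 1 library was left out. Between genotype labels averaged, the count was 1 (Cyp2c53-ps) without the 2 libraries with the fewest genes above 0 and 0 to 1 when 1 library was left out. The cause of these changes was not tested, apart from fewer samples where libraries were left out. Of the named values, the difference of Cyp2b9 between genotype labels with GW3965 changed sign, from 3.18 to -0.43 by edgeR and -0.39 by DESeq2, and that of Cyp2e1 with GW3965 in control was -0.11 and ranged from -0.20 to 0.0085 when 1 library was left out, positive only without control vehicle library 1. Between genotype labels averaged, 14 members were positive, against 23 under scaling without mitochondrial genes. No paired analysis was possible because the groups share no library numbers. Scaling without mitochondrial genes moved the median of all genes to 0.10 in each genotype comparison. The 20 members that were not tested reached at most 17.9 normalized counts in any library.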
